A study of Homo sapiens with 20 samples.

Results

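The genes described here act in homologous recombination and in the Fanconi anaemia pathway of DNA crosslink repair. They were chosen by gene symbol as a list of 40, and 36 of the 40 had a transcript cluster of that symbol on the array, out of 21448 clusters tested in the whole series. RBBP8, RAD54B, FANCA and FANCD2 were not analysed here, and each measured member had 1 cluster. BE(2)-C, an established human neuroblastoma cell line with an amplified MYCN gene, received control siRNA for 48 hours, or 1 of 2 siRNAs that target lncNB1, a long noncoding RNA (siRNA-1, siRNA-2). The paper states that cells of all siRNA groups were treated with cycloheximide before polysome fractionation. RNA from heavy polysomes (mRNAs with many ribosomes) and from light polysomes (mRNAs with fewer) was hybridised to Clariom S arrays from an input of 100 ng. There were 6 groups and 20 arrays. Each fraction had 4 control arrays (replicates 1 to 4), 3 siRNA-1 arrays (replicates 1, 2 and 4) and 3 siRNA-2 arrays (replicates 1, 2 and 3). All samples came from 1 cell line, no untransfected cells were included, and the labels do not say whether replicates were separate cultures, so that p-values measure the spread between these samples only. The paper says of its heavy polysome arrays that the experiments were repeated 3 times, without linking this to replicate numbers. No cluster carried the name lncNB1 or its official symbol LINC02525, so the knockdown itself was not checked here.

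Homologous recombination repairs a broken chromosome by copying an intact sister: the ends are cut back to single strands, a recombinase coats the single strand with help from BRCA1, PALB2 and the recombinase's own paralogs, the filament invades the sister, and the joined molecules are later dissolved or cut. The Fanconi pathway handles strands that are crosslinked to each other: a core complex attaches ubiquitin to FANCI and FANCD2, which directs nucleases to the crosslink and hands the resulting break to recombination. Both pathways work mainly in S and G2 phases, and many of their genes are transcribed with the cell cycle.

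Values are log2 signals after the authors' normalization, so a negative difference is a lower signal, and fold changes are given beside some of them. A group of arrays was called higher or lower when limma's moderated test gave an adjusted p under 0.05 over all clusters (Benjamini-Hochberg). Array signals depend on the probes, so levels of different genes compare only roughly and were not tested against each other. Marker levels and array medians are given below as a rough check only. The arrays measure RNA of whole dishes, and fewer cells that make an mRNA cannot be told apart from less of it in each cell.

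The neuroblastoma identity of the cells was checked first. Over the 20 arrays, 10 neuroblastoma markers averaged from 7.30 (TH) to 12.2 (MYCN), and their mean was between 9.10 and 9.98 on each array. Markers of other cells were not all low: the fibroblast markers THY1 (9.85), PDGFRB (8.39) and COL1A2 (8.33) had clear mean signals, and the mean of 5 fibroblast markers was between 7.65 and 8.38 on each array. The mean was between 4.90 and 5.49 for 5 immune markers (PTPRC at 4.12) and between 5.17 and 5.82 for 5 epithelial markers (CDH1 at 3.10). Heavy and light RNA were least separated in the replicate 1 transfections, where the spread (SD over clusters) of the heavy minus light difference was 0.362 (control), 0.455 (siRNA-1) and 0.398 (siRNA-2), against 0.486 to 0.645 in the other 7 transfections. The median member signal of an array was between 7.95 and 8.29 with the control siRNA, between 7.39 and 7.85 with siRNA-1 and between 8.08 and 8.30 with siRNA-2, while the median of all clusters was between 6.58 and 6.68 on every array.

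Recombination and Fanconi mRNAs were lower with siRNA-1 in both polysome fractions. In heavy polysomes 16 of 36 members fell, 1 rose (RAD50) and 19 did not pass the test, and 3.23% of all clusters were called lower and 5.68% higher. In light polysomes 20 members fell, 0 rose and 16 did not pass, against 6.32% of all clusters called lower and 5.27% higher. The median difference over the members was -0.42 in heavy and -0.53 in light polysomes, and 0.00 over all clusters in both. Without overlap of the arrays, 15 members lay below every control array in heavy polysomes (7.60% of all clusters did) and 21 in light polysomes (11.0% of all clusters).

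The same 15 genes fell in both fractions with siRNA-1, namely BRCA1, BARD1, BRIP1, MRE11, EXO1, XRCC3, RAD51AP1, FANCB, FANCE, UBE2T, FANCI, BLM, RMI1, CHEK2 and RNF168. MUS81 was called in heavy polysomes only, and XRCC2, FANCG, FANCM, RMI2 and SLX4 in light polysomes only. PALB2, NBN, RAD51B, RAD51C, RAD51D, RAD54L, FANCC, FANCF, FANCL, EME1, ATM, ATR, CHEK1 and RNF8 were called with siRNA-1 in neither fraction.

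**Figure D1:**
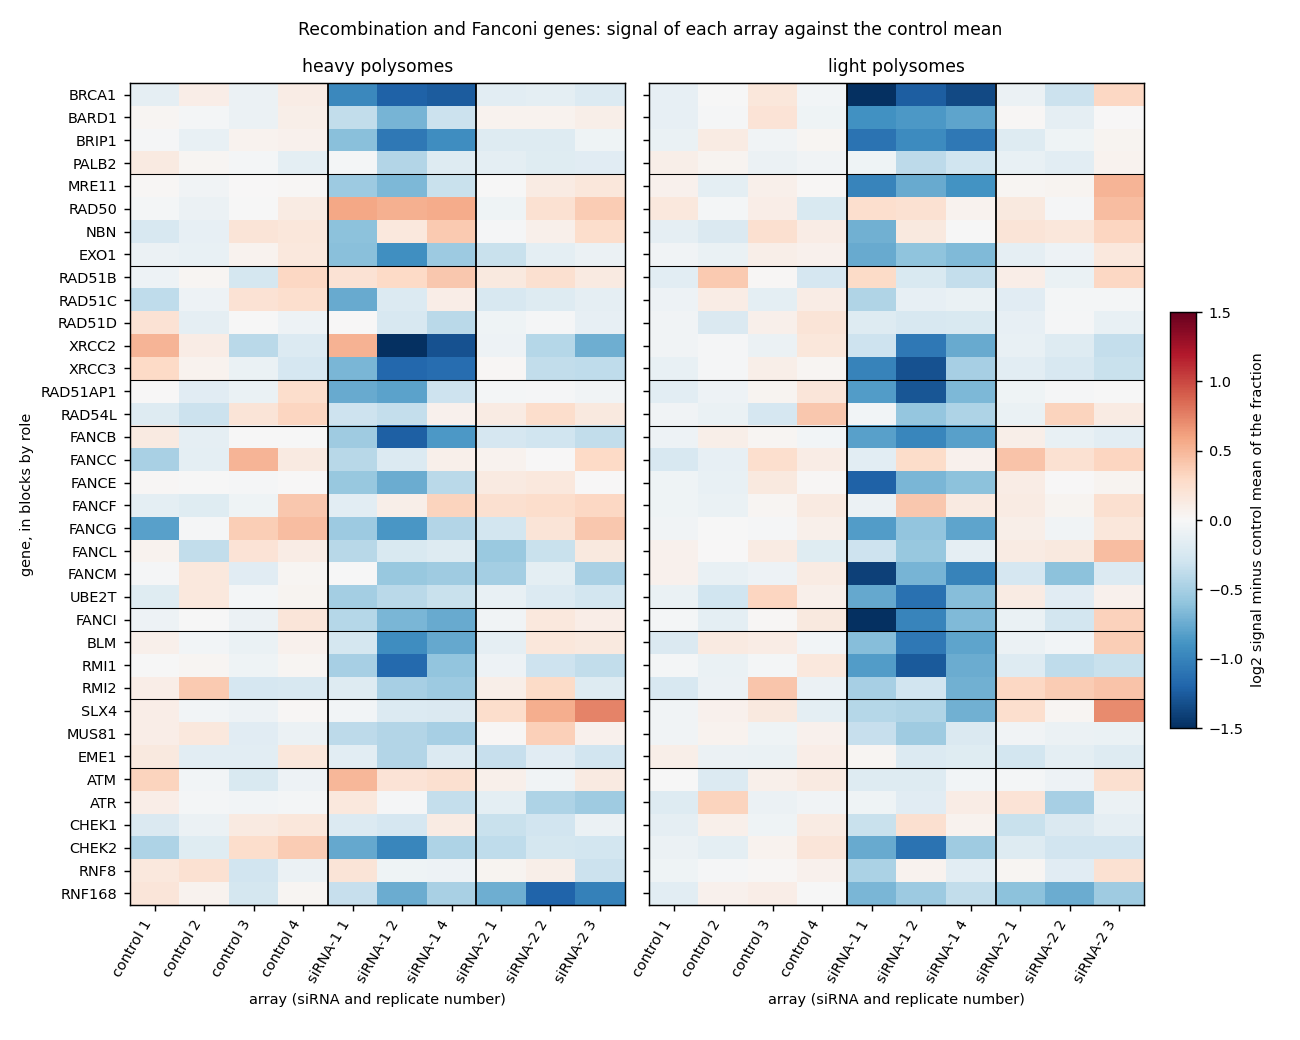
Each cell is the log2 signal of 1 member (rows, in blocks by role) on 1 array (columns, by siRNA and replicate) minus the mean of the 4 control arrays of that fraction; blue is lower, red is higher. The siRNA-1 columns are blue for BRCA1, BRIP1, XRCC3, FANCB and RMI1 in both fractions, RAD50 is red with siRNA-1 in heavy polysomes, and RNF168 is blue with both siRNAs.

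With siRNA-2, RNF168 was the only member called in heavy polysomes (1 of 36 lower and 0 higher, against 0.247% and 0.168% of all clusters) and the only one in light polysomes (1 lower and 0 higher, against 0.219% and 0.191%). The members' median difference was -0.07 in heavy and -0.03 in light polysomes. At an unadjusted p under 0.05 in limma there were 4 members in heavy polysomes (RNF168, FANCM and ATR lower, SLX4 higher). In light polysomes there were 5 (RNF168, FANCM and RMI1 lower, FANCC and RMI2 higher). Of all 21448 clusters, 1852 and 2102 reached this. Tested directly, siRNA-1 arrays were lower than siRNA-2 arrays for 13 members in heavy polysomes and higher for 0 (3.26% and 5.49% of all clusters), with a median of -0.38. In light polysomes they were lower for 19 and higher for 0 (6.68% and 5.61%), with a median of -0.56. The comparisons with control share their 4 control arrays, and this direct one shares the siRNA-1 arrays with the first.

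**Figure D2:**
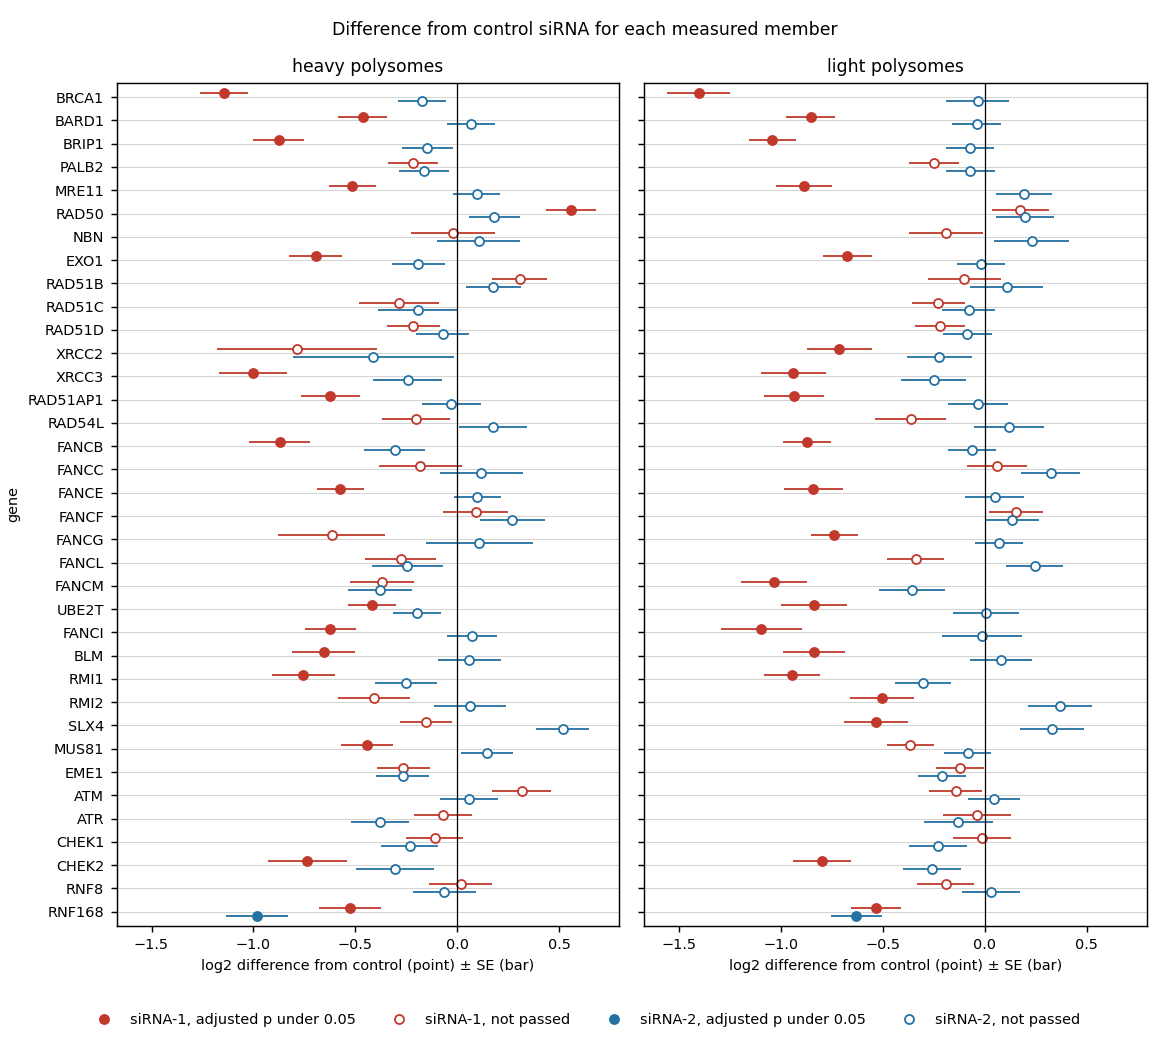
Points are the log2 difference from control for each measured member, with bars of 1 SE, for siRNA-1 (red) and siRNA-2 (blue) in heavy (left) and light (right) polysomes; filled points had an adjusted p under 0.05. Red filled points lie left of 0 except RAD50 in heavy polysomes, and RNF168 is the only gene with blue filled points.

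Cell cycle genes moved with the members. Of 32 measured S phase markers that are not members, 16 fell with siRNA-1 in heavy polysomes (median -0.57) and 29 in light polysomes (median -0.79), and 0 rose. Of 49 G2 and mitosis markers, 24 fell in heavy (median -0.55) and 43 in light polysomes (median -0.72), and 0 rose. With siRNA-2, 0 of either list passed, with 4 S phase and 3 G2 and mitosis markers at an unadjusted p under 0.05 in heavy polysomes and 3 and 4 in light. That threshold was reached by 1852 of all 21448 clusters in heavy and by 2102 in light polysomes.

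Some cell type markers moved with siRNA-1 too. Of 10 neuroblastoma markers 3 fell in heavy polysomes (HAND2 by 0.75, ISL1 by 0.75 and DBH by 0.53) and 3 in light polysomes (HAND2 by 0.84, ISL1 by 0.71 and MYCN by 0.43), and 0 rose. The mean of that list was 9.47 to 9.73 on siRNA-1 heavy arrays against 9.63 to 9.98 in control, and 9.10 to 9.27 against 9.37 to 9.52 in light polysomes. Of 5 epithelial markers 1 rose in each fraction (EPCAM, by 1.75 in heavy polysomes, adjusted p = 6.15e-05, and with adjusted p = 0.000244 in light polysomes), with list means of 5.48 to 5.67 against 5.28 to 5.43 in heavy and 5.53 to 5.82 against 5.17 to 5.21 in light polysomes. Of 5 fibroblast markers 1 rose in each fraction (DCN, by 0.90 and 0.70), with list means of 7.90 to 8.38 against 7.97 to 8.16 in heavy and 7.80 to 7.92 against 7.65 to 7.95 in light polysomes. By limma 0 immune markers were called with siRNA-1 (0 at an unadjusted p under 0.05). With siRNA-2, 0 genes of these 4 lists were called, with 1 neuroblastoma marker in heavy and 2 neuroblastoma and 1 epithelial marker in light polysomes at an unadjusted p under 0.05. Again 1852 and 2102 of all 21448 clusters reached that threshold. The part of the cell cycle and cell type markers in the members' fall was not tested.

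Promoters of 5 measured members are printed. A search was made for 4 letter strings that E2F factors, regulators of S phase genes, are known to bind. Windows of EXO1, XRCC2, RMI1 and FANCC, and of no other measured member with a window, held such a string. NBN, FANCI and RMI2 were measured too but had no window, so they were not searched. RNF168, the gene that fell with both siRNAs, is printed because its window held none of these exact strings. Near matches were not counted: the RNF168 line holds tttggcgg, which differs from TTTGGCGC in its last base only. FANCC was not called with siRNA-1. The strings searched were TTTCCCGC, TTTGGCGC, TTTGCCGC and TTTCGCGC on both strands, and none of them contains the CCAAT box (CCAAT) or a CHR string (TTTGAA or TTCGAA), which were searched on both strands too. Each line runs from 120 bases before to 30 bases after a RefSeq transcription start (GRCh38.p14), read in the direction of the gene, with the E2F string or its reverse complement in capitals.
EXO1, chr1:241848084-241848233, plus strand: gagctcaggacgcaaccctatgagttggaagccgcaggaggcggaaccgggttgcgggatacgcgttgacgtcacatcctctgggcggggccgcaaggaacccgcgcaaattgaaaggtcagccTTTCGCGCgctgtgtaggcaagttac
XRCC2, chr7:152676112-152676261, minus strand: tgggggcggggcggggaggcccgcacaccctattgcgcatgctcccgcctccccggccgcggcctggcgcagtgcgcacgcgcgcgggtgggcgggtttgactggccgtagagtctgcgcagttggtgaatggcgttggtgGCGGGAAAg
RMI1, chr9:83980685-83980834, plus strand: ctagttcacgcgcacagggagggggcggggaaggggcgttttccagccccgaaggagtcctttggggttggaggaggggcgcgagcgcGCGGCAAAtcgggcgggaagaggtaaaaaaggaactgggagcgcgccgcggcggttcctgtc
FANCC, chr9:95317680-95317829, minus strand: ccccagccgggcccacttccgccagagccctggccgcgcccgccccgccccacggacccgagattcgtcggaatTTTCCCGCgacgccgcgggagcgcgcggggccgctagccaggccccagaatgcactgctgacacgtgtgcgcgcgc
RNF168, chr3:196503739-196503888, minus strand: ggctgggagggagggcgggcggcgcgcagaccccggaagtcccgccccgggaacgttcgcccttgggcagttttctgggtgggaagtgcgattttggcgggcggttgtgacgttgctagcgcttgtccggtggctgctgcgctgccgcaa
The string begins 5 bases into the transcript of EXO1 and 22 bases into that of XRCC2, and it ends at position -25, before the start, in RMI1 and at position -39 in FANCC, whose second string (positions -172 to -165) lies outside the line shown. The windows of FANCA and FANCD2, which were not analysed here, held 1 string each. In total 48 windows of 300 bases (250 before to 50 after a start) were found, for 36 of the 40 listed genes. These genes were not the 36 measured ones: RBBP8, FANCA and FANCD2 had windows, and NBN, FANCI, RMI2 and RAD54B had none. Windows were counted by start, so some genes had several. Of these windows, 6 (12.5%) held an E2F string, those of FANCA and FANCD2 included. The share was 3.31% of 35116 windows of all genes and 4.03% of 20090 windows of genes named on the platform. Among members that fell with siRNA-1 in either fraction it was 3 of 22 windows (13.6%), and among other measured members 1 of 22 (4.55%). The CCAAT box was in 45.8% of member windows, 34.6% of all windows and 34.7% of those of genes named on the platform. A CHR string was in 8.33%, 16.4% and 13.7%. A match of letters is not evidence that a factor bound there, and a missing match is not evidence that none did. Most members that fell and had a window, BRCA1 and BRIP1 among them, held no E2F string in these windows. A role of E2F factors was not tested.

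Of all measured members, BRCA1 differed most from control with siRNA-1 in both fractions. It is a ubiquitin ligase that promotes resection and loading of the recombinase, BARD1 is its obligate partner, BRIP1 is a helicase bound to its BRCT domains, and PALB2 is the adaptor through which it recruits the loader of the recombinase. The BRCA1 cluster (TC1700010763.hg.1) gave signals of 8.03, 8.26, 8.07 and 8.27 on the control heavy arrays, 7.19, 6.94 and 6.91 with siRNA-1, and 7.99, 8.01 and 7.95 with siRNA-2. All siRNA-1 arrays lay below all others, and the siRNA-2 arrays lay just under the control arrays. In light polysomes the signals of BRCA1 were 7.93, 8.05, 8.22 and 8.02 in control, 6.44, 6.81 and 6.70 with siRNA-1, and 7.96, 7.73 and 8.37 with siRNA-2, where the siRNA-2 arrays spread on both sides of control. BRCA1 fell with siRNA-1 by 1.14 in heavy (2.21-fold, SE 0.118, adjusted p = 0.000139) and by 1.40 in light polysomes (2.65-fold, SE 0.154, adjusted p = 5.55e-05). Between the siRNAs the difference was -0.97 in heavy (adjusted p = 0.000587) and -1.37 in light polysomes (adjusted p = 0.000112), siRNA-1 being lower.

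BRIP1 fell with siRNA-1 by 0.88 in heavy (SE 0.125, adjusted p = 0.00107) and by 1.04 in light polysomes (SE 0.117, adjusted p = 6.15e-05). Its heavy signals were 8.13 to 8.30 on the 4 control arrays and 7.61, 7.16 and 7.31 with siRNA-1, without overlap. BARD1 fell by 0.46 in heavy (SE 0.120, adjusted p = 0.0280) and by 0.85 in light polysomes (SE 0.119, adjusted p = 0.000304). The heavy call of BARD1 ended (adjusted p up to 0.145) when control array 1, 2 or 4, siRNA-1 array 2 or all replicate 1 arrays were left out. PALB2 differed from control by -0.22 (adjusted p = 0.356) and -0.25 (adjusted p = 0.242), so that it did not pass in either fraction. In this group 3 of 4 members fell in each fraction, with medians of -0.67 and -0.95.

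Of 4 genes that recognise and resect break ends, 2 fell and 1 rose with siRNA-1 in heavy polysomes, and 2 fell and 0 rose in light polysomes. MRE11 is the nuclease that starts resection, RAD50 is the ATPase that holds the ends, NBN is the third subunit of their complex, and EXO1 extends the resected strand. MRE11 gave 9.11, 9.03, 9.10 and 9.11 on control heavy arrays, 8.54, 8.42 and 8.76 with siRNA-1 and 9.08, 9.22 and 9.26 with siRNA-2. In light polysomes MRE11 gave 8.80, 8.60, 8.81 and 8.76 in control, 7.75, 7.98 and 7.84 with siRNA-1 and 8.77, 8.78 and 9.26 with siRNA-2. The siRNA-1 arrays were the lowest in both fractions, with no overlap. MRE11 fell by 0.52 in heavy (SE 0.115, adjusted p = 0.0138) and by 0.89 in light polysomes (SE 0.139, adjusted p = 0.000723), the former call ending without siRNA-1 replicate 2 or all replicate 1 arrays (adjusted p up to 0.0818).

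RAD50, whose protein binds MRE11, rose in heavy polysomes. Its signals were 9.34, 9.28, 9.36 and 9.49 on control heavy arrays, 9.95, 9.90 and 9.93 with siRNA-1, and 9.30, 9.59 and 9.75 with siRNA-2. The 3 siRNA-1 arrays lay together above all control arrays, while siRNA-2 replicate 1 lay among them. The difference with siRNA-1 was 0.56 (1.47-fold, SE 0.124, adjusted p = 0.0135), and without siRNA-1 heavy replicate 2 the adjusted p was 0.0501. In light polysomes RAD50 differed by 0.18 (SE 0.142, adjusted p = 0.524), and the difference between siRNA-1 and siRNA-2 in heavy polysomes was 0.38 (adjusted p = 0.104). EXO1 fell by 0.70 in heavy (SE 0.129, adjusted p = 0.00483) and by 0.67 in light polysomes (SE 0.119, adjusted p = 0.00176). NBN varied among siRNA-1 arrays, at 7.02, 7.79 and 8.02 in heavy polysomes against 7.39 to 7.82 in control, and its differences were -0.02 and -0.19 (adjusted p = 0.974 and 0.613).

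**Figure D3:**
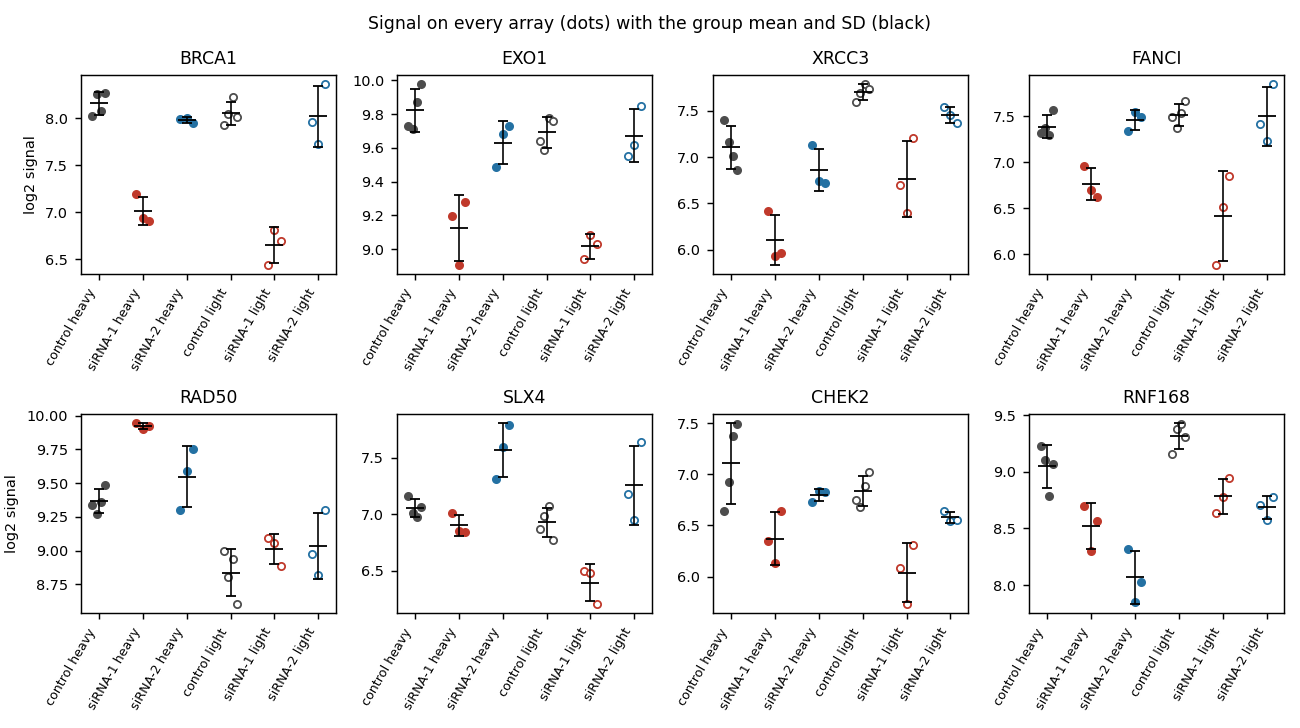
Dots are the log2 signals of single arrays for 8 members, filled for heavy and open for light polysomes, with the group mean and SD in black; the vertical axes differ between genes. BRCA1, EXO1, XRCC3 and FANCI lie lowest with siRNA-1 in both fractions, RAD50 is higher with siRNA-1 in heavy polysomes, SLX4 lies higher with siRNA-2 in heavy polysomes (adjusted p = 0.136), and RNF168 is lower with both siRNAs.

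Of the 5 paralogs of the recombinase, which help its filament to form and persist, 1 fell in heavy and 2 in light polysomes. XRCC3, which pairs with RAD51C, gave 7.40, 7.16, 7.01 and 6.86 on control heavy arrays, 6.42, 5.93 and 5.96 with siRNA-1, and 7.13, 6.74 and 6.72 with siRNA-2. The light signals of XRCC3 were 7.60, 7.69, 7.79 and 7.74 in control, 6.70, 6.39 and 7.21 with siRNA-1, and 7.54, 7.46 and 7.36 with siRNA-2. In both fractions the siRNA-1 arrays were below all others. XRCC3 fell by 1.00 in heavy (2.00-fold, SE 0.168, adjusted p = 0.00266) and by 0.94 in light polysomes (1.92-fold, SE 0.160, adjusted p = 0.00128).

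XRCC2, which belongs to the paralog complex with RAD51B, RAD51C and RAD51D, fell in light polysomes by 0.71 (SE 0.159, adjusted p = 0.00811). Its light signals were 10.21, 10.24, 10.17 and 10.43 in control and 9.95, 9.18 and 9.51 with siRNA-1, and the call ended without siRNA-1 light replicate 2 or with all 20 arrays in 1 fit (adjusted p up to 0.176). In heavy polysomes the siRNA-1 arrays gave 9.77, 7.67 and 7.95 against 8.84 to 9.76 in control. Replicate 1 was the highest array of both groups, at nearly the same signal, and the other 2 siRNA-1 arrays lay below all control arrays. The heavy difference of XRCC2 was -0.79 with an SE of 0.394 (adjusted p = 0.277). With the replicate number as a block it was -0.89 and was called (adjusted p = 0.0333). RAD51B (0.31 and -0.10), RAD51C (-0.29 and -0.23) and RAD51D (-0.21 and -0.22) did not pass in heavy or light polysomes.

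Of the partners of strand exchange, RAD51AP1, which stimulates the invasion step, fell, and RAD54L, a translocase that remodels the joint molecule, did not pass. RAD51AP1 gave 8.36, 8.17, 8.24 and 8.61 on control heavy arrays, 7.59, 7.55 and 8.03 with siRNA-1, and 8.32, 8.33 and 8.30 with siRNA-2. In light polysomes RAD51AP1 gave 8.47, 8.55, 8.67 and 8.81 in control, 7.78, 7.34 and 7.95 with siRNA-1, and 8.56, 8.60 and 8.62 with siRNA-2. Again the siRNA-1 arrays alone were low, by 0.62 in heavy (SE 0.144, adjusted p = 0.0165) and 0.93 in light polysomes (SE 0.146, adjusted p = 0.000725) as means. The heavy call of RAD51AP1 ended without siRNA-1 replicate 1 or 2, or all replicate 1 arrays (adjusted p up to 0.0956). RAD54L differed from control by -0.20 and -0.36 (adjusted p = 0.560 and 0.224).

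In the Fanconi core complex and its conjugating enzyme, 3 of 8 measured genes fell in heavy and 5 of 8 in light polysomes. FANCB, FANCL and an accessory protein form the catalytic module, in which FANCL is the ubiquitin ligase; FANCE and FANCF, with FANCC, contact the substrate; FANCG scaffolds FANCA; FANCM is the DNA translocase that anchors the complex; and UBE2T is the enzyme that donates the ubiquitin. FANCB gave 6.66, 6.39, 6.52 and 6.51 on control heavy arrays, 5.99, 5.29 and 5.66 with siRNA-1, and 6.27, 6.22 and 6.14 with siRNA-2. The light signals of FANCB were 6.57, 6.73, 6.68 and 6.61 in control, 5.83, 5.66 and 5.83 with siRNA-1, and 6.73, 6.53 and 6.49 with siRNA-2. The siRNA-1 arrays were lowest in both fractions, and in heavy polysomes the siRNA-2 arrays lay between siRNA-1 and control. FANCB fell by 0.87 in heavy (SE 0.150, adjusted p = 0.00309) and by 0.87 in light polysomes (SE 0.117, adjusted p = 0.000219), and the heavy difference with siRNA-2 was -0.31 (adjusted p = 0.615).

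FANCE fell by 0.57 in heavy (SE 0.114, adjusted p = 0.00711) and by 0.84 in light polysomes (SE 0.145, adjusted p = 0.00142). UBE2T fell by 0.42 in heavy (SE 0.117, adjusted p = 0.0407) and by 0.84 in light polysomes (SE 0.161, adjusted p = 0.00309). The heavy call of UBE2T was near the threshold and ended without any array except control replicate 1, with all 20 arrays in 1 fit, and with a trended and robust spread (adjusted p up to 0.119). FANCM fell in light polysomes by 1.03 (2.05-fold, SE 0.160, adjusted p = 0.000684), where control arrays gave 6.02, 5.84, 5.88 and 6.08 and siRNA-1 arrays 4.56, 5.25 and 4.96. The siRNA-1 light mean was 4.92, a low signal (5 was the filter level for a cluster's mean), so the size of the fall is less sure. In heavy polysomes FANCM differed by -0.37 (SE 0.156, adjusted p = 0.188), with siRNA-1 replicate 1 (5.80) among the control arrays. With siRNA-2 its heavy difference was much the same (-0.38, SE 0.156, adjusted p = 0.481).

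FANCG fell in light polysomes by 0.74 (SE 0.117, adjusted p = 0.000772) and differed by -0.62 in heavy (SE 0.263, adjusted p = 0.193). Control heavy replicate 1 of FANCG, at 6.19, lay below the other control arrays (6.98, 7.37 and 7.45) and within the siRNA-1 range of 6.12 to 6.56. FANCL differed from control by -0.28 and -0.34 (adjusted p = 0.410 and 0.146) and lay lower with siRNA-1 than with siRNA-2 in light polysomes (-0.58, SE 0.149, adjusted p = 0.0177), a call that ended without siRNA-1 replicate 2, siRNA-2 replicate 3 or all replicate 1 arrays (adjusted p up to 0.0969). FANCC (-0.18 and 0.06) and FANCF (0.09 and 0.15) did not pass.

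FANCI, which with FANCD2 forms the pair of proteins that the core complex ubiquitinates, fell in both fractions. Its signals were 7.31, 7.38, 7.30 and 7.56 on control heavy arrays, 6.96, 6.70 and 6.63 with siRNA-1, and 7.34, 7.55 and 7.49 with siRNA-2. In light polysomes they were 7.49, 7.37, 7.53 and 7.67 in control, 5.89, 6.52 and 6.85 with siRNA-1, and 7.41, 7.23 and 7.85 with siRNA-2. The siRNA-1 arrays did not overlap the others in either fraction, although their own spread in light polysomes was the wider. FANCI fell by 0.62 in heavy (SE 0.124, adjusted p = 0.00719) and by 1.10 in light polysomes (2.14-fold, SE 0.198, adjusted p = 0.00201).

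The 3 members grouped here for dissolving double Holliday junctions, which are not the whole complex, were called lower in light polysomes with siRNA-1. BLM is the helicase, and RMI1 and RMI2 are its accessory proteins. RMI1 gave 8.84, 8.87, 8.78 and 8.88 on control heavy arrays, 8.34, 7.67 and 8.25 with siRNA-1, and 8.77, 8.53 and 8.47 with siRNA-2. In light polysomes RMI1 gave 9.43, 9.35, 9.42 and 9.62 in control, 8.62, 8.20 and 8.71 with siRNA-1, and 9.27, 9.08 and 9.12 with siRNA-2. In both fractions the order was siRNA-1, siRNA-2, control, without overlap between groups. RMI1 fell with siRNA-1 by 0.75 in heavy (SE 0.154, adjusted p = 0.00815) and by 0.95 in light polysomes (SE 0.138, adjusted p = 0.000423), whereas its differences with siRNA-2 of -0.25 and -0.30 did not pass (adjusted p = 0.748 and 0.490).

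BLM fell by 0.66 in heavy (SE 0.155, adjusted p = 0.0184; up to 0.107 without siRNA-1 replicate 2 or 4) and by 0.84 in light polysomes (SE 0.151, adjusted p = 0.00201). RMI2 was at the threshold in light polysomes, with a fall of 0.50 (SE 0.157, adjusted p = 0.04999). The call ended in 12 settings (adjusted p up to 0.196): without any array except control replicate 1 and siRNA-1 replicate 2, without all replicate 1 arrays, with array weights, with the replicate number as a block and with all 20 arrays in 1 fit. In heavy polysomes RMI2 differed by -0.41 (adjusted p = 0.196). With the replicate number as a block this heavy difference was -0.49 and was called (adjusted p = 0.0247). Between the siRNAs, RMI2 was lower with siRNA-1 in light polysomes by a difference of -0.87 (SE 0.167, adjusted p = 0.00294).

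The genes for cutting junctions behaved unevenly. SLX4 is the scaffold for several nucleases, and MUS81 and EME1 form one of them. SLX4 gave 7.16, 7.01, 6.98 and 7.07 on control heavy arrays, 7.01, 6.85 and 6.84 with siRNA-1, and 7.32, 7.60 and 7.80 with siRNA-2. Its light signals were 6.87, 6.99, 7.08 and 6.78 in control, 6.50, 6.48 and 6.20 with siRNA-1, and 7.18, 6.95 and 7.64 with siRNA-2. The siRNA-2 arrays were above all control arrays in heavy polysomes and the siRNA-1 arrays below all control arrays in light polysomes. SLX4 fell with siRNA-1 in light polysomes by 0.53 (SE 0.157, adjusted p = 0.0386), a call that ended with the replicate number as a block and without control replicate 1, 2 or 3, any siRNA-1 array, siRNA-2 replicate 1 or all replicate 1 arrays (adjusted p up to 0.152).

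The SLX4 difference with siRNA-2 in heavy polysomes was 0.52 (SE 0.128, adjusted p = 0.136, unadjusted p = 0.00139 in the limma fit). Tested against each other, the 2 siRNAs differed for SLX4 by -0.67 in heavy (SE 0.137, adjusted p = 0.00855) and by -0.86 in light polysomes (SE 0.168, adjusted p = 0.00327), siRNA-1 being lower. MUS81 fell with siRNA-1 in heavy polysomes by 0.44 (SE 0.128, adjusted p = 0.0466) and differed by -0.36 in light polysomes (SE 0.116, adjusted p = 0.0551). The heavy call of MUS81 ended in 9 settings (adjusted p up to 0.135), leaving out array 1, 2 or 4 of control, any siRNA-1 array, array 1 or 3 of siRNA-2, or all replicate 1 arrays. EME1 differed by -0.26 and -0.12 (adjusted p = 0.264 and 0.625).

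Among the signalling genes, the kinases ATM and ATR, which sense breaks and single-stranded DNA, and CHEK1, the effector kinase of ATR, did not pass with siRNA-1. Their differences in heavy and light polysomes were 0.31 and -0.14 for ATM, -0.07 and -0.04 for ATR, and -0.11 and -0.01 for CHEK1. CHEK2, the effector kinase of ATM, fell. CHEK2 gave 6.64, 6.92, 7.37 and 7.49 on control heavy arrays, 6.34, 6.13 and 6.64 with siRNA-1, and 6.73, 6.84 and 6.83 with siRNA-2. Its light signals were 6.75, 6.68, 6.89 and 7.02 in control, 6.08, 5.73 and 6.30 with siRNA-1, and 6.64, 6.54 and 6.55 with siRNA-2. The heavy groups touched, siRNA-1 replicate 4 lying at the level of control replicate 1, and the light groups did not overlap. CHEK2 fell by 0.74 in heavy (SE 0.192, adjusted p = 0.0297) and by 0.80 in light polysomes (SE 0.143, adjusted p = 0.00185), the former call ending when control array 3 or 4 or siRNA-1 array 1 or 2 was left out (adjusted p up to 0.148).

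RNF168 and RNF8 are ubiquitin ligases that act one after the other on chromatin beside a break and direct the choice of repair. RNF8 differed by 0.02 and -0.19 with siRNA-1 (adjusted p = 0.971 and 0.474). RNF168 (TC0300013703.hg.1) gave 9.23, 9.11, 8.78 and 9.07 on control heavy arrays, 8.70, 8.30 and 8.57 with siRNA-1, and 8.32, 7.85 and 8.03 with siRNA-2. Its light signals were 9.16, 9.38, 9.42 and 9.31 in control, 8.64, 8.78 and 8.94 with siRNA-1, and 8.71, 8.58 and 8.78 with siRNA-2. Every knockdown array lay below every control array of its fraction.

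RNF168 fell with siRNA-2 by 0.98 in heavy (1.98-fold, SE 0.152, adjusted p = 0.0163) and by 0.63 in light polysomes (1.55-fold, SE 0.123, adjusted p = 0.0384). With siRNA-1 it fell by 0.53 in heavy (SE 0.152, adjusted p = 0.0464) and by 0.53 in light polysomes (SE 0.123, adjusted p = 0.0103). The siRNAs themselves differed by 0.45 in heavy (SE 0.162, adjusted p = 0.109) and by 0.10 in light polysomes (SE 0.132, adjusted p = 0.717). In heavy polysomes same-numbered control and siRNA-2 arrays deviated together, as did control and siRNA-1 arrays of replicates 1 and 4. With the replicate number as a block RNF168 was still the only member called with siRNA-2 (a fall of 0.96, adjusted p = 0.00206), while the clusters called went from 89 to 590. The heavy siRNA-2 call ended on leaving out control array 2 or 4, or array 2 or 3 of siRNA-2 (adjusted p up to 0.178). In light polysomes it ended without any single control or siRNA-2 array, without siRNA-1 replicate 2, without all replicate 1 arrays and with the replicate number as a block (adjusted p up to 0.185), and RNF168 stayed lower in all of these settings. The heavy siRNA-1 call ended with a trended and robust spread and on leaving out array 1, 2 or 4 of control, array 2 or 4 of siRNA-1, or array 2 or 3 of siRNA-2 (adjusted p up to 0.208), and the light one without all replicate 1 arrays (adjusted p = 0.0600).

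**Figure D4:**
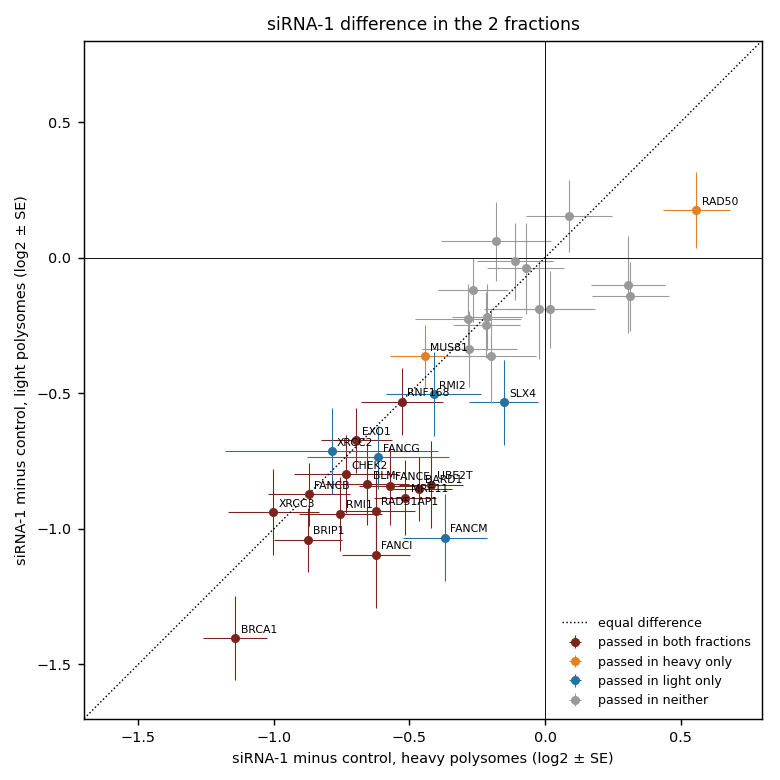
Each point is 1 measured member, with the siRNA-1 minus control difference in heavy polysomes on the horizontal axis and in light polysomes on the vertical axis (log2, bars of 1 SE); the dotted line marks equal differences. BRCA1 lies lowest at -1.14 and -1.40, FANCM, FANCI and UBE2T lie below the line, and RAD50 stands at 0.56 and 0.18.

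Whether siRNA-1 moved these mRNAs between light and heavy polysomes was tested on heavy minus light differences between arrays that share an siRNA and a replicate number. The labels link the fractions by that number only, and the deviations of such arrays correlated weakly (median r over clusters 0.0209, 1 of 10 over 0.1). Under siRNA-1, 0 of 36 members were called (0% of all clusters in either direction), with 3 members and 1206 of 21448 clusters at an unadjusted p under 0.05 in limma. The median shift was 0.14 over the members and 0.03 over all clusters. The members at an unadjusted p under 0.05 were FANCM (0.66, SE 0.271, adjusted p = 0.849), ATM (0.46, SE 0.193, adjusted p = 0.864) and BARD1 (0.39, SE 0.176, adjusted p = 0.885), each with a higher heavy share under siRNA-1. The FANCM values were -0.23, 0.12, -0.24 and -0.24 in control transfections and 1.24, -0.01 and 0.32 with siRNA-1, the first of these standing far above the rest. The light signal behind that first value was low (4.56).

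Under siRNA-2 again 0 members were called (0% of all clusters), with 1 member and 542 clusters at an unadjusted p under 0.05 and a median shift of -0.04. That member was FANCL (-0.49, SE 0.195, adjusted p = 1.00), at -0.12, 0.07 and 0.24 with siRNA-2 against 0.18 to 0.84 in control. These tests compare 3 transfections with 4, and a shift that misses the threshold is not shown to be absent.

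In control cells the members differed in how they were spread between the fractions. Of 36 members, 5 were lower in heavy than in light polysomes and 5 were higher, against 12.8% and 14.5% of all clusters, so their share of calls was near that of the whole array. Lower in heavy polysomes were XRCC2 (-1.01, SE 0.204, adjusted p = 0.00179), RMI1 (-0.61, SE 0.103, adjusted p = 0.000527), XRCC3 (-0.60, SE 0.155, adjusted p = 0.00934), PALB2 (-0.43, SE 0.101, adjusted p = 0.00459) and RAD51D (-0.37, SE 0.115, adjusted p = 0.0268). Of these 5, XRCC2, XRCC3 and RAD51D are paralogs of the recombinase. Higher in heavy polysomes were FANCG (0.72, SE 0.180, adjusted p = 0.00764), FANCC (0.66, SE 0.122, adjusted p = 0.000972), FANCL (0.55, SE 0.128, adjusted p = 0.00454), RAD50 (0.53, SE 0.120, adjusted p = 0.00400) and MRE11 (0.35, SE 0.116, adjusted p = 0.0364).

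The heavy minus light differences of XRCC2 were -0.45, -0.89, -1.33 and -1.39 in the 4 control transfections, -0.19, -1.52 and -1.56 with siRNA-1, and -0.97, -1.25 and -1.39 with siRNA-2. All 10 were below 0, with replicate 1 nearest to 0 in each group. RMI1 was negative in all 10 transfections too (-0.74 to -0.48 in control). FANCG gave -0.04, 0.70, 1.11 and 1.10 in control, and its call ended on leaving out the third or the fourth of these (adjusted p up to 0.0658). The calls of XRCC3 (without control replicate 4, adjusted p = 0.0728), RAD51D (without control replicate 2, 3 or 4, up to 0.172) and MRE11 (without any single control transfection, siRNA-2 replicate 1 or all replicate 1 transfections, up to 0.126) also ended.

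**Figure D5:**
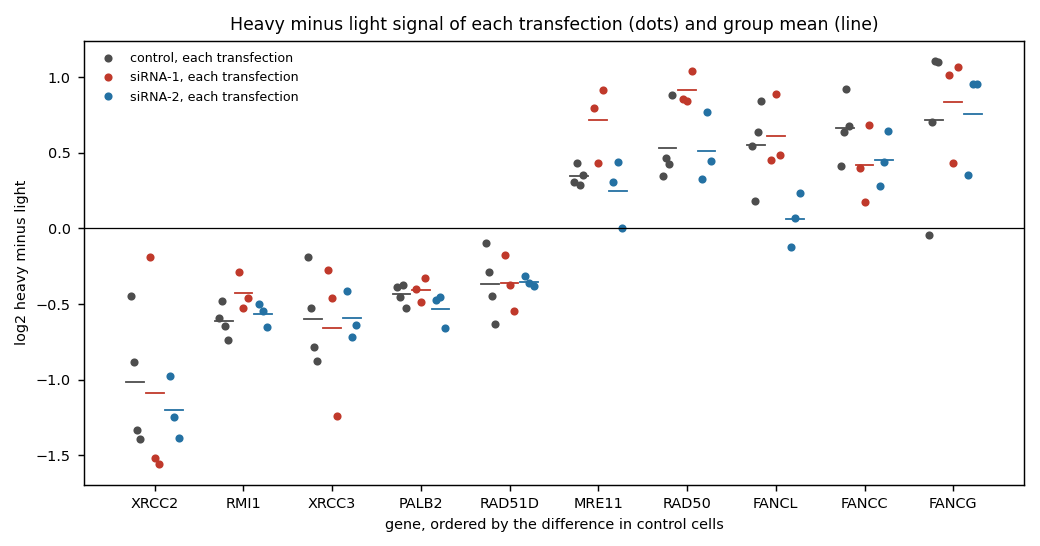
Dots are the heavy minus light log2 differences of single transfections for the 10 members called in control cells, with the mean of each siRNA group as a line. XRCC2, RMI1, XRCC3, PALB2 and RAD51D lie below 0 and the other 5 genes mostly above it, under all 3 siRNAs.

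Other DNA repair genes were set beside the members from lists of their own. Of 45 measured genes of recombination, crosslink repair and the checkpoint that are not members, 11 fell and 1 rose with siRNA-1 in heavy polysomes (median -0.14), and 16 fell and 1 rose in light polysomes (median -0.22). By the smallest p in light polysomes the leading ones were DNA2, a nuclease and helicase of resection (-1.27, SE 0.154, adjusted p = 0.000124), SFR1, an accessory factor of the recombinase (-1.11, SE 0.144, adjusted p = 0.000185), and MND1, a partner of strand exchange in meiosis (-1.07, SE 0.144, adjusted p = 0.000236). Of 15 genes of end joining, which seals breaks without a template, 0 fell and 1 rose in each fraction (medians -0.02 and -0.20). The riser was LIG4, the ligase of that pathway, at 1.16 in light polysomes (SE 0.111, adjusted p = 1.91e-05), with SHLD1 (0.44, adjusted p = 0.0556) and XRCC5 (0.38, adjusted p = 0.0927) next by p and not passing. Of 32 genes of excision and mismatch repair, 2 fell and 2 rose in heavy and 7 fell and 1 rose in light polysomes (medians -0.07 and -0.20), led in light polysomes by POLB (-1.12, SE 0.139, adjusted p = 0.000137), UNG (-0.97, SE 0.160, adjusted p = 0.00105) and NEIL3 (-0.72, SE 0.120, adjusted p = 0.00109). With siRNA-2, 0 genes of the 3 lists passed in either fraction by limma. At an unadjusted p under 0.05 there were 7, 3 and 1 genes of the lists in heavy and 2, 1 and 2 in light polysomes. Of all 21448 clusters, 1852 in heavy and 2102 in light polysomes did so.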

How the data were processed

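RNA of heavy and light polysomes from transfected BE(2)-C cells was measured on Clariom S arrays. Per the labels, the authors processed the arrays in R (version 3.5.3) with oligo, RMA and limma (version 3.38.3), and the deposited values are log2 signals per probe set. The sources used here do not say if both fractions shared 1 normalization. RMA forces equal signal distributions, so a change of all mRNAs at once cannot be seen. The table held 27189 probe sets, from which 5741 control and other sets were removed, so that the tests covered 21448 transcript clusters. Gene names came from the platform annotation (17709 clusters with 1 symbol, 0 with several and 3739 with none).

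Groups followed the sample labels. Each fraction was fitted on its own with limma (version 3.58.1 in R 4.3.3: lmFit and eBayes, 3 siRNA groups, 10 arrays), and heavy minus light differences of arrays sharing siRNA and replicate number were fitted over 10 such pairs, called transfections. Deviations of same-numbered control and siRNA-2 heavy arrays correlated at 0.369, 0.189 and 0.426, so the blocked value is given for that comparison. For control and siRNA-1 heavy arrays they correlated at 0.620, 0.0539 and 0.467, the second being under the 0.1 required of every pair. There, blocked values are given for members whose call changed. p-values were adjusted over all clusters (Benjamini-Hochberg, 0.05), and the number of arrays limits the precision. Members called in any comparison were named, the others were named once, and in each role group the member with the smallest p with siRNA-1 was described in full. Members and gene lists were chosen with earlier results of these data known. Alternatives were repeated quantile normalization, a filter on clusters with a mean under 5, array weights, a trended and robust spread, a replicate block, 1 fit of 20 arrays and leaving out arrays. Leaving out all replicate 1 arrays was added after seeing the data. Promoter windows were taken from RefSeq.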

Additional observations from a re-analysis of the deposited data

Results flagged for a closer look

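Groups of 4 control arrays were searched for single arrays far from the others, and 2 of 72 such groups (36 members in 2 fractions) held one, where chance alone gives about 1 in 20. For MRE11, control heavy replicate 2 gave 9.03, and the nearest other array gave 9.10, a gap of 0.838 of the group's whole range. For ATR, control heavy replicate 1 gave 6.49, and the nearest gave 6.36, a gap of 0.923 of the range. All 3 siRNA-1 heavy arrays of MRE11 lay below this control group.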

How the results depend on the processing

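Except for siRNA-2 against control, where 1 member was called, counts of called members kept within 1.5 times their reported value in most alternatives, and no called member turned its direction in any. The siRNA-2 count was 0 in 10 of 17 alternatives in light and in 4 of 17 in heavy polysomes. With siRNA-1 in heavy polysomes 8 of 17 calls held in every setting (BRCA1, BRIP1, EXO1, XRCC3, FANCB, FANCE, FANCI and RMI1), and in light polysomes 16 of 20. Leaving out single arrays or all replicate 1 arrays gave 8 to 15 called members for siRNA-1 against control in heavy polysomes (8 without siRNA-1 replicate 2, where all clusters called went from 1912 to 913), 17 to 19 in light polysomes, 0 to 1 for siRNA-2 in each fraction, 6 to 14 for siRNA-1 against siRNA-2 in heavy polysomes (6, 7 and 8 without siRNA-1 replicate 2, siRNA-2 replicate 2 and siRNA-2 replicate 3, with 929, 908 and 1125 clusters against 1877), 13 to 19 in light polysomes, 6 to 11 for heavy against light in control cells (6 without control replicate 4, with 3637 clusters against 5864), and 0 to 0 for both shifts. With array weights, 2 members were called for siRNA-2 in heavy polysomes.

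Replicate numbers met the criterion for pairing (every pair over 0.1) only for control and siRNA-2 in heavy polysomes. Deviations of arrays with the same number under different siRNAs correlated between 0.0195 and 0.620 in heavy (6 of 8 pairs over 0.1; median 0.337, against -0.0388 for unlike numbers) and between -0.104 and 0.404 in light polysomes (4 of 8). Of 10 arrays, 7 in heavy and 8 in light polysomes correlated best with their own number, a hint from the data only. With the replicate number as a block, 19 members were called for siRNA-1 and 1 for siRNA-2 in heavy polysomes (3501 and 590 clusters, against 1912 and 89), and 18 and 0 in light polysomes; siRNA-1 against siRNA-2 gave 17 and 19. The block added XRCC2 and RMI2 to the heavy calls with siRNA-1 and RAD54L, FANCG, RMI1 and RMI2 to those between the siRNAs, and in light polysomes it ended RMI2 and SLX4 (siRNA-1) and RNF168 (siRNA-2). Without pairing heavy and light arrays, heavy against light gave 10 and both shifts 0. The causes were not tested. The 3 or 4 arrays a group limit what could be detected, and signals near background were not separated from absent mRNAs.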
